A study of Mus musculus with 9 samples.

Results

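The genes described are the matrix metalloproteinases (MMPs), the ADAM, ADAMTS and ADAMTS-like families, and the tissue inhibitors of metalloproteinases (TIMPs), as measured in mouse mammary adipose stromal cells. They were defined by symbol and not by their values, although earlier results of these data were known. A gene was a member if a probe set of the array named it and no other gene, and if the symbol was that of an MMP, ADAM, ADAMTS, ADAMTS-like or TIMP gene. This gave 82 members of 19930 genes, namely 22 MMPs, 33 ADAMs, 18 ADAMTSs, 5 ADAMTS-like genes and 4 TIMPs. Mmp15 and Adamts2 were not analysed here. The study compared adipose stromal cells from the mammary glands of female Balb/c mice at 3 stages, with 3 arrays at each stage. Nulliparous mice were 8 weeks old (ASC-N), lactating glands were taken on day 5 of lactation (ASC-L), and involuting glands were taken on day 3 after the pups were removed (ASC-I). The labels name no transgene or drug for any group. The sample labels name adipose stroma freed by collagenase and hyaluronidase, whereas the study's methods describe RNA from cultures at low passage, and neither says which mice stand behind each array.

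MMPs are zinc-dependent enzymes that are made as inactive proenzymes and, once activated, cut collagens, proteoglycans and other components of the extracellular matrix. ADAMs are membrane-bound relatives that release growth factors and receptors from the cell surface, and ADAMTSs are secreted relatives that trim proteoglycans and procollagens. TIMPs bind the active site of these enzymes and block them. In the mammary gland these proteases are known for remodeling the stroma around the epithelium, above all when milk-producing alveoli are taken down during involution.

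Of the MMP genes, 10 of 22 lie next to each other on mouse chromosome 9 between bases 7272514 and 7699585 of GRCm38.p6. Many members of this cluster are known to be induced through AP-1, a dimer of Fos and Jun proteins that binds the motif TGAGTCA. The motif was searched as these exact letters and as the reverse complement TGACTCA, with no other motif searched. The windows were 300 bases long, from 250 bases before to 50 after each start given for a gene, in the RefSeq promoters of GRCm38.p6. A gene with several starts counted if any of its windows held the motif. It was present for 7 of the 10 genes of the cluster (70%), for 3 of the 41 other members that had a promoter sequence (7.32%) and for 5.95% of 27025 genes. The genes of the cluster without it in any window were Mmp8, Mmp20 and Mmp27. Mmp12 had it only at its second start and Mmp7 only at its first. The following 120 bases before the start of 4 genes of the cluster, all on the plus strand, are shown, and the capitals mark the motif. These genes were picked because they have the motif and are among those that varied most between arrays. The intervals are chr9:7272394-7272513 for Mmp13, chr9:7347254-7347373 for the second start of Mmp12, chr9:7445702-7445821 for Mmp3 and chr9:7502222-7502341 for Mmp10.
Mmp13: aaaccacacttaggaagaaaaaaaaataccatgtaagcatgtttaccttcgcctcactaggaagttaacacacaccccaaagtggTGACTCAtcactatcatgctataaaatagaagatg
Mmp12: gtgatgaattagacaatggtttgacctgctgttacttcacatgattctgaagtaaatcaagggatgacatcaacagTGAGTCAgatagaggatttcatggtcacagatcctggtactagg
Mmp3: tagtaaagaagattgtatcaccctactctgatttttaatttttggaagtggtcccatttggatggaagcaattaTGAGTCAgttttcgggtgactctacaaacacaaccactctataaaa
Mmp10: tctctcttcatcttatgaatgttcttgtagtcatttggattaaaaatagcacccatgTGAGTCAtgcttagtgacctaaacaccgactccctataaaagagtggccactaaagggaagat
The motif began 35 bases before the start of Mmp13, 44 before the second start of Mmp12, 46 before the start of Mmp3 and 63 before that of Mmp10. In percentiles of all genes, the SD over the 9 arrays was at 97.2 for Mmp1b, 71.8 for Mmp1a and 51.5 for Mmp7. These genes also have the motif. Mmp8 (97.4), Mmp27 (97.2) and Mmp20 (47.8) lack it. A relation between the motif and the spread was not tested. A match describes the sequence and does not show that it was used in these cells.

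Signals were log2 values per probe set, averaged over the probe sets of a gene, and array medians lay between 5.928 and 6.005. Fibroblast and adipose progenitor markers averaged 8.78 to 9.88 per array over 17 of 18 genes, and adipocyte markers averaged 5.99 to 6.32 over 13 of 14. Replicate 2 of ASC-L and replicate 2 of ASC-I stood apart, because the 22 measured markers of luminal epithelium averaged 8.46 and 7.22 there, against 5.65 to 6.61 on the other 7 arrays. The same arrays were highest for the 12 markers of basal epithelium (8.29 and 6.93, against 5.37 to 5.97) and the 11 measured milk genes (6.59 and 5.77, against 4.96 to 5.22), so that luminal signal here also stands for these. The 24 macrophage markers averaged 5.87 to 7.81 in ASC-Ns, 6.18 to 6.51 in ASC-Ls and 6.93 to 8.44 in ASC-Is. In bulk RNA, fewer cells of a type and less RNA per cell cannot be told apart.

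Of the 82 members, 51 had a mean signal above 4.98, the 95th percentile of 1015 olfactory receptor genes, which served as a background level. The 31 members at or below that level were mostly ADAMs known mainly from the reproductive tract. They also included Mmp1a, Mmp1b, Mmp7, Mmp20, Mmp21, Adam28, Adamts3, Adamts19, Adamtsl3 and Timp4. Mmp14, the membrane-anchored MMP that activates pro-Mmp2, had means of 12.27 ± 0.08 in ASC-Ns, 12.23 ± 0.31 in ASC-Ls and 12.15 ± 0.19 in ASC-Is (SD, n = 3 each). Adam10 and Adam17, the main sheddases of the cell surface, varied just as little between stages, with differences of -0.13 to 0.11 and of -0.11 to -0.03 on the log2 scale. Their intervals ran from -0.42 to 0.41 for Adam10 and from -0.51 to 0.36 for Adam17, both within 1.5-fold of no difference.

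In ASC-Ls against ASC-Ns, which asks what sets lactation apart from the resting gland, 1 of 82 members passed the limits of an unadjusted p under 0.05 and at least 1.5-fold, and it fell. Over all 19930 genes 0.627% passed, 0.171% as higher and 0.457% as lower. The median difference was 0.02 for the members and 0.01 for all genes on the log2 scale. The gene was Adamts1, a secreted protease that cuts versican and aggrecan. Its log2 signals were 10.01, 8.96 and 9.25 in ASC-L replicates 1 to 3, against 10.16, 9.97 and 10.33 in ASC-N replicates 1 to 3. ASC-L replicate 1 lay within the range of ASC-Ns and the other ASC-L arrays below it. The difference was -0.75 ± 0.30 (SE), 1.68-fold lower, with a 95% interval from -1.44 to -0.06 and a Benjamini-Hochberg adjusted p = 0.998 by limma. It no longer passed when any of 4 arrays was left out, these being replicates 1 and 3 of ASC-N (-0.75 and -0.66) and replicates 2 and 3 of ASC-L (-0.52 and -0.67), nor after cyclic loess normalization (-0.71) or without both arrays of high luminal signal (-0.52).

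Among the MMPs 14 had a higher mean in ASC-Ls and 8 a lower one, with a median difference of 0.15 from ASC-Ns, and 0 of 22 passed. Mmp10, a stromelysin that cuts many matrix proteins and activates other MMPs, had the highest difference of all 19930 genes, 1.93 ± 1.16 (SE), with an interval from -0.70 to 4.56. Its values overlapped between stages, since ASC-L arrays read 5.644, 9.493 and 9.792 and ASC-N arrays read 5.922, 6.003 and 7.213. Without ASC-L replicate 1 it passed the limits (3.26 ± 0.88), as did Mmp13 (2.55 ± 0.87) and Mmp9 (2.497 ± 0.833), while Adam23, Adamts1, Adamts5, Adamtsl1, Adamtsl4 and Mmp23 passed as lower. These were 9 of 82 members, where 2.03% of all genes passed in the same fit. The ASC-L arrays left in it were replicates 2 and 3, and replicate 2 had the highest luminal signal of all arrays, 8.46. The part of that signal in these differences was not tested. The array left out was the lowest of ASC-L for Mmp10, Mmp13 and Mmp9. Leaving out ASC-L replicate 2 instead gave 0 members, where 0.617% of all genes passed. Leaving out ASC-L replicate 3 gave 2, where 1.15% did. By adjusted p, 0 genes were under 0.05 by limma with or without ASC-L replicate 1, and 726 had an unadjusted p under 0.05 with it.

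**Figure D1:**
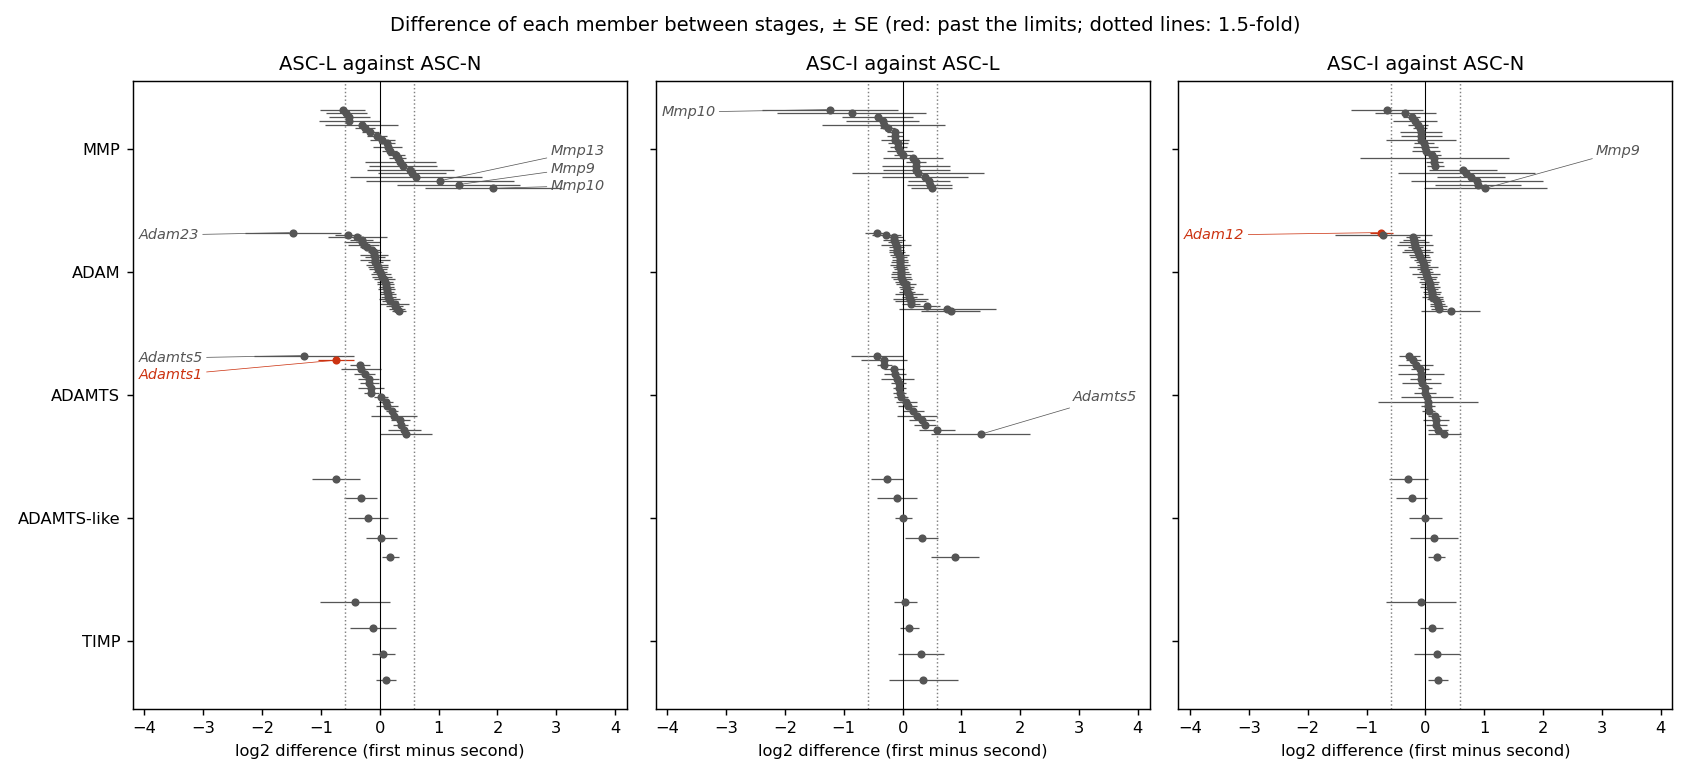
Log2 difference of each of the 82 members with its SE for the 3 comparisons, by family, with the later stage minus the earlier on the horizontal axis. Adamts1 in ASC-Ls against ASC-Ns and Adam12 in ASC-Is against ASC-Ns, in red, were the members past the limits, while the MMPs reached the widest errors.

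In ASC-Is against ASC-Ls, the step from milk production to regression, 0 of 82 members passed the limits by limma. The replicate number was not a block in this fit. Over all genes 0.482% passed, 0.406% as higher and 0.0753% as lower. An unadjusted p under 0.05 by limma occurred for 2 of 82 members, where 359 of 19930 genes had one. The 2 members were Adam12 (-0.44 ± 0.19) and Adamts18 (-0.31 ± 0.12), both under 1.5-fold and with an adjusted p = 0.9996. Adamts18 was named after its values were seen. All 3 arrays of Adamts18 were lower in ASC-Is (4.85 to 5.08) than in ASC-Ls (5.21 to 5.35), near the background level of 4.98. Deviations from the stage means correlated between arrays of the same replicate number (r = 0.47, 0.73 and 0.46). Arrays of different numbers were not compared, so these r cannot show that the number pairs arrays. With the replicate number as a block 2 members passed, against 1.04% of all genes. They were Adamts5, the main aggrecanase of mouse cartilage (1.33 ± 0.47), and Adamtsl1, a secreted protein without a protease domain (0.89 ± 0.28). Without the block the SEs were 0.85 and 0.40, with intervals from -0.59 to 3.25 for Adamts5 and from -0.03 to 1.80 for Adamtsl1. Adamts5 read 11.64, 9.26 and 11.40 in ASC-Is and 11.01, 7.80 and 9.51 in ASC-Ls, so that ASC-I was higher at each replicate number although the ranges overlapped. Adamtsl1 likewise read 7.64, 6.70 and 7.67 in ASC-Is and 7.29, 6.07 and 5.98 in ASC-Ls.

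Of the 24 macrophage markers, 23 had a higher mean in ASC-Is against ASC-Ls, and 11 of them passed the limits. Their ranges did not overlap, at 6.93 to 8.44 in ASC-Is against 6.18 to 6.51 in ASC-Ls. Adam8, a sheddase of myeloid cells, read 8.60, 7.36 and 7.71 in ASC-Is against 6.77, 7.70 and 6.74 in ASC-Ls. ASC-L replicate 2 lay among the ASC-I arrays, and the difference of 0.82 ± 0.50 did not pass (interval from -0.32 to 1.96). Without both arrays of high luminal signal it was 1.40 ± 0.56, past the limits, and the part of the macrophage marker level in it was not tested. Without the same arrays Adamts5 (1.26 ± 0.54), Adamtsl1 (1.02 ± 0.43) and Adamts1 (0.63 ± 0.25) also passed as higher, which made 4 of 82 members where 0.973% of all genes passed. Without ASC-L replicate 1, 6 members passed, with Mmp10 (-2.56 ± 0.88) and Mmp13 (-2.40 ± 0.87) lower in ASC-Is, and Adamts1, Adamts5, Adamtsl1 and Adamtsl4 higher, where 1.66% of all genes passed. The ASC-L arrays left in that fit again included replicate 2, the array of highest luminal signal. Leaving out ASC-L replicate 2 instead gave 0 members, where 0.492% of all genes passed. Leaving out ASC-L replicate 3 gave 1, where 0.467% did.

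In ASC-Is against ASC-Ns, the gland after a cycle of nursing against the gland before, 1 of 82 members passed and it fell, where 0.251% of all genes passed, 0.0702% as higher and 0.181% as lower. It was Adam12, a sheddase of mesenchymal cells and a partner of integrins. Its signals were 8.76, 9.23 and 8.98 in ASC-Is against 9.71, 10.08 and 9.43 in ASC-Ns, and no ASC-I array reached the lowest ASC-N array. The difference was -0.75 ± 0.19 (SE), 1.69-fold lower, with an interval from -1.19 to -0.31 and an adjusted p = 0.9999 by limma. ASC-Ls lay between, at 9.21, 9.59 and 9.50, and overlapped both other stages. Without ASC-N replicate 2 the difference of -0.58 was under 1.5-fold, and it passed in each of the other settings tried. It also passed with the replicate number as a block, as the only member, where 0.452% of all genes passed.

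**Figure D2:**
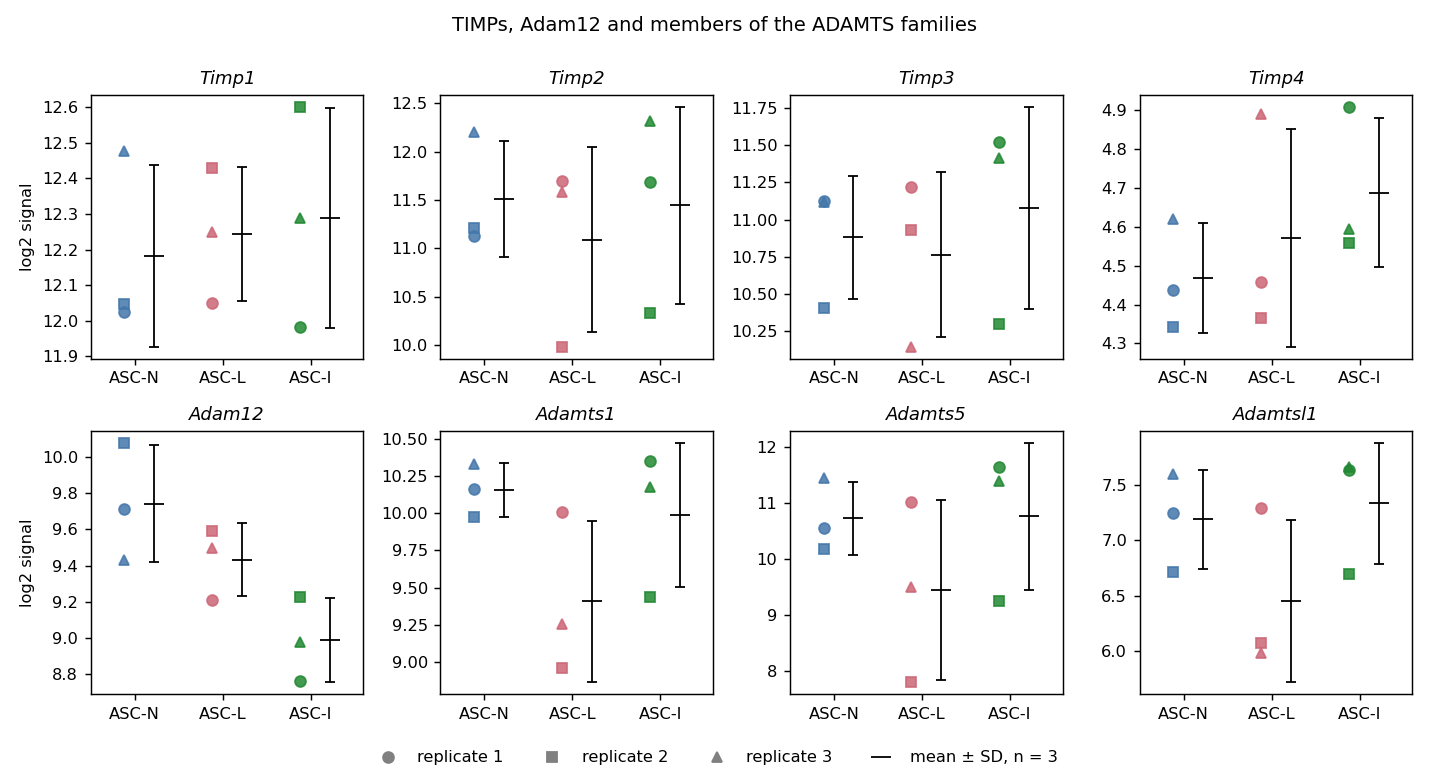
Log2 signal of the 4 TIMPs, Adam12, Adamts1, Adamts5 and Adamtsl1 on each array by stage, with the stage mean and SD beside the points and a scale of its own in each panel. All 3 ASC-I arrays of Adam12 lie below all 3 ASC-N arrays, and replicate 2 is the lowest array of ASC-L and of ASC-I for Timp2 and Adamts5.

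The SD over all 9 arrays was above the 95th percentile of all genes (0.62) for 15 of 82 members (18.3%), and 10 of these were MMPs. The cluster on chromosome 9 held 7 of the 10. Mmp10 had an SD of 1.72, Mmp13 of 1.69, Mmp3 of 1.5045 and Mmp9 of 1.48, and the median was 0.23 for the members and 0.19 for all genes. For 10 of the 15 the pooled SD within stages was larger than the range of the stage means.

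**Figure D3:**
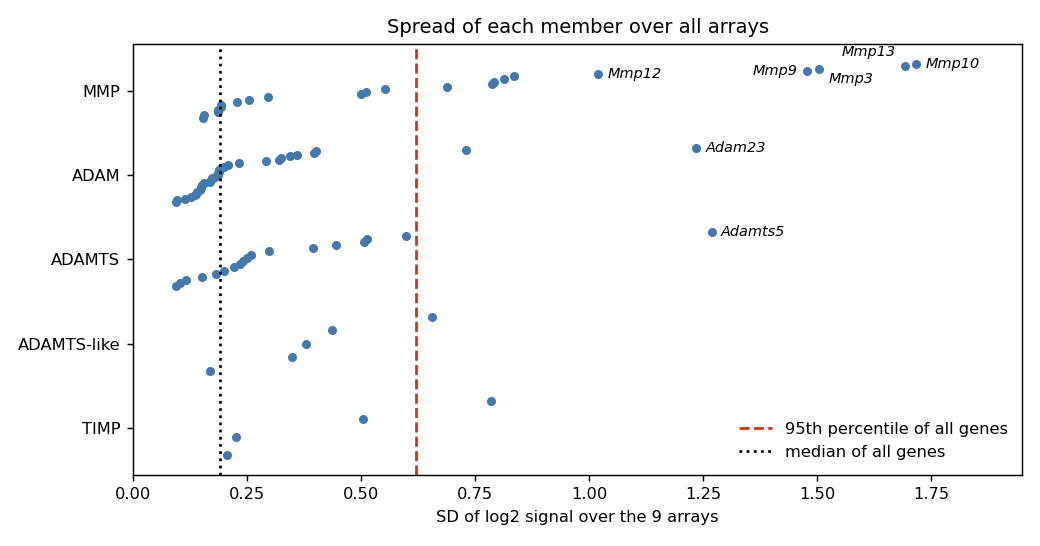
SD of the log2 signal over the 9 arrays for each of the 82 members, by family, with the median and the 95th percentile of all genes as lines. MMPs reach furthest, and 15 members lie right of the 95th percentile of 0.62.

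Mmp13, the main interstitial collagenase of the mouse, had the widest range of the cluster. It read 9.12, 8.23 and 8.17 in ASC-Ns, 6.46, 10.86 and 11.26 in ASC-Ls, and 6.76, 10.31 and 8.90 in ASC-Is. The 2 lowest arrays were replicate 1 of ASC-L and of ASC-I, the 3 highest were the other ASC-L arrays and ASC-I replicate 2, and the range was 27.8-fold. Its difference was 1.02 ± 1.26 for ASC-Ls against ASC-Ns with an interval from -1.84 to 3.88. Mmp10 in ASC-Is read 5.60, 9.01 and 6.63, so its lowest arrays were again replicate 1 of ASC-L and of ASC-I. Over the 9 arrays Mmp10 followed Mmp13 with r = 0.90 and rho = 0.83 (exact permutation, two-sided, p = 0.00124 and 0.00827, adjusted p = 0.336), and r was 0.85 without ASC-L replicates 1 and 3. It ranked 22 of 19929 genes by r, and was 1 of 81 members (1.23%) with r above 0.8, against 0.823% of all genes. Mtf2, Map2k6 and Nfkbib ranked highest (r = 0.93 to 0.94). Adjusted p was under 0.05 for 0 genes, and Mmp13 and Mmp3 were chosen for this comparison after their values were seen.

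Mmp3, the stromelysin that cuts proteoglycans and basement membrane, had another order of arrays. It read 9.83, 8.45 and 12.03 in ASC-Ns, 8.60, 10.86 and 12.70 in ASC-Ls, and 9.91, 11.24 and 11.81 in ASC-Is. Replicate 3 was the highest array of each stage, and the stages overlapped, with 0.61 ± 1.13 for ASC-Ls against ASC-Ns and 0.88 ± 1.13 for ASC-Is against ASC-Ns. Mmp1b, at or near background, and Adamts7 were the members nearest to it (r = 0.90 and 0.85), ranked 20 and 51 of 19929 genes, and they were the 2 of 81 members (2.47%) with r above 0.8, against 0.627% of all genes. The adjusted p was 0.654 for Mmp1b and 0.748 for Adamts7 by exact permutation. Mmp27, a neighbor in the cluster, also had replicate 3 highest at each stage, at 6.18 in ASC-N, 7.27 in ASC-L and 6.16 in ASC-I, against 4.93 to 5.30 on the other arrays.

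Mmp12, the macrophage elastase, and Mmp8, the neutrophil collagenase, differed by 0.90 ± 0.73 and 0.78 ± 0.58 in ASC-Is against ASC-Ns and did not pass. Mmp12 read 9.12, 10.81 and 10.35 in ASC-Is against 10.15, 9.81 and 7.62 in ASC-Ns, and Mmp8 read 6.18, 6.97 and 7.24 in ASC-Is against 6.30, 6.28 and 5.48 in ASC-Ns. The stages overlapped for both genes, with ASC-N replicate 3 the lowest array for each. That array also had the lowest macrophage marker level, 5.87. Over the 9 arrays, however, r with the macrophage markers was 0.27 for Mmp12 (rho = 0.13, exact permutation p = 0.479 and 0.743, adjusted p = 0.9991) and 0.02 for Mmp8 (rho = 0.22, p = 0.958 and 0.581, adjusted p = 0.9991), and 0.15 and -0.18 without ASC-N replicate 3 and ASC-I replicate 1.

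**Figure D4:**
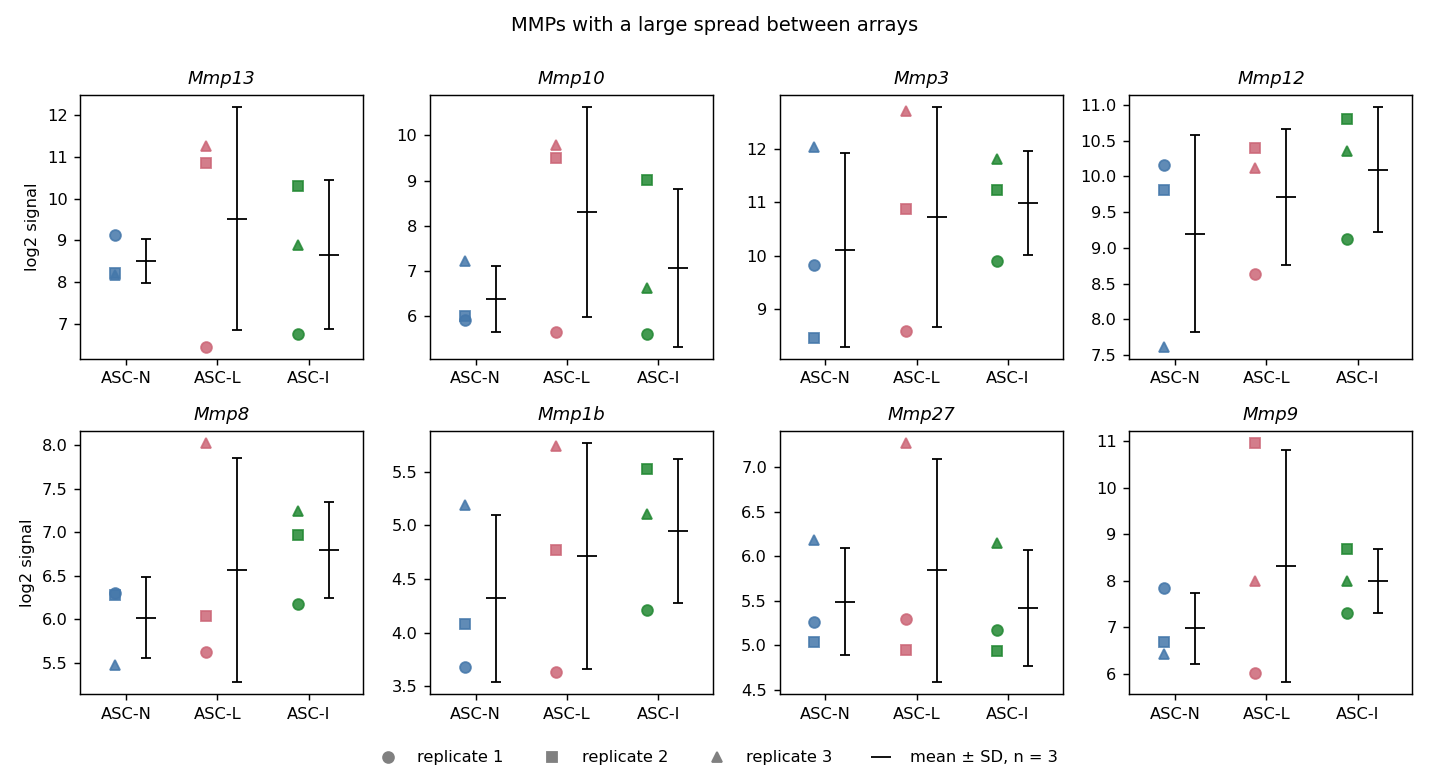
Log2 signal of 7 MMPs of the chromosome 9 cluster and of Mmp9 on each array by stage, with the stage mean and SD beside the points and a scale of its own in each panel. ASC-L replicate 1 is the lowest array of its stage for Mmp13, Mmp10, Mmp3 and Mmp9, and ASC-L arrays spread more widely than ASC-N arrays for Mmp13, Mmp10 and Mmp9.

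The gelatinases, which cut denatured collagen and basement membrane, differed in opposite directions from ASC-Ns in both later stages, were both lower in ASC-Is against ASC-Ls (-0.32 for Mmp9 and -0.34 for Mmp2), and did not pass in any comparison. Mmp9 read 7.84, 6.68 and 6.42 in ASC-Ns, 6.01, 10.96 and 7.99 in ASC-Ls and 7.32, 8.68 and 8.00 in ASC-Is. ASC-L replicate 2 was the highest array by more than 2 log2 units and ASC-L replicate 1 the lowest of all, and the difference of 1.34 ± 1.05 from ASC-Ns had an interval from -1.03 to 3.71. Mmp2, the gelatinase of fibroblasts, read 10.70, 9.98 and 11.13 in ASC-Ns, 10.06, 9.05 and 11.75 in ASC-Ls and 9.69, 9.60 and 10.56 in ASC-Is. Replicate 3 was highest and replicate 2 lowest at every stage. Its difference of -0.65 ± 0.62 in ASC-Is against ASC-Ns had an interval from -2.04 to 0.75.

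By role, the 4 collagenases had higher means in ASC-Ls against ASC-Ns (median 0.47) and in ASC-Is against ASC-Ns (median 0.39), and 0 of 4 passed. The lowest differences of the 4 were 0.04 and 0.002, and the arrays overlapped for each gene. Mmp1a and Mmp1b had mean signals below the background level of 4.98. The 7 ADAMTS proteoglycanases had a median difference of -0.18 in ASC-Ls against ASC-Ns, with 3 higher, 4 lower and Adamts1 the gene past the limits. The 9 somatic ADAM proteases were lower for 7 genes in ASC-Ls against ASC-Ns (median -0.10), and Adam12 was the gene past the limits in ASC-Is against ASC-Ns. Mmp11, a stromelysin of the stroma around tumors, read 9.32, 9.36 and 9.35 in ASC-Ns, 9.02, 7.66 and 9.80 in ASC-Ls and 9.655, 8.225 and 9.136 in ASC-Is, with its 2 lowest values on the arrays of high luminal signal. The 5 membrane-type MMPs measured, which act at the cell surface, differed by -0.52 to 0.28 in ASC-Ls against ASC-Ns, and Mmp16 (-0.52 ± 0.35), named after its values were seen, was at the low end.

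TIMPs did not pass in any comparison. Timp1, an inhibitor induced by many cytokines, differed by 0.05 to 0.11 log2 units between stages, with intervals from -0.39 to 0.55, and read 11.98 to 12.60 on all arrays. Timp3, which is bound to the matrix and inhibits Adam17 and the aggrecanases, differed by -0.12 ± 0.39 in ASC-Ls against ASC-Ns and by 0.31 ± 0.39 in ASC-Is against ASC-Ls. Timp2, the partner of Mmp14 in the activation of Mmp2, had the widest spread of the 4. It read 11.12, 11.21 and 12.20 in ASC-Ns, 11.70, 9.98 and 11.59 in ASC-Ls and 11.69, 10.33 and 12.31 in ASC-Is. The 2 lowest arrays were those of high luminal signal, which were also highest for basal and milk markers, and the part of these signals in the differences between stages was not tested. Timp4 stayed at background on all arrays, at 4.34 to 4.91.

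Among the ADAMs without protease activity, Adam23, a binding partner of integrins and LGI proteins in neurons, read 9.42, 9.05 and 10.10 in ASC-Ns, 9.39, 6.33 and 8.42 in ASC-Ls and 8.75, 7.52 and 10.16 in ASC-Is. Its lowest arrays were also those of high luminal signal. The difference of -1.48 ± 0.82 in ASC-Ls against ASC-Ns had an interval from -3.34 to 0.39. Adam22, named after its values were seen, was lower on all 3 ASC-L arrays (4.62 to 5.00) than on the ASC-N arrays (5.12 to 5.74), but at 1.46-fold it was under the limit (interval from -1.05 to -0.05). In ASC-Ls against ASC-Ns all arrays lay apart for 4 members as higher (Adam7, Adam21, Adamts18 and Adamts20) and for Adam22 as lower, where 8.59% of all genes lay apart, 4.89% as higher and 3.7% as lower. In ASC-Is against ASC-Ls only Adamts18 of the 82 did, as lower, where 5.56% of all genes did, 2.6% as higher and 2.96% as lower. In ASC-Is against ASC-Ns 3 were higher (Adamts20, Adamtsl2 and Mmp7) and 2 lower (Adam12 and Adam1a), where 6.54% of all genes lay apart, 3.89% as higher and 2.65% as lower. These members were picked out after their values were seen. Adam7, Adam21, Mmp7 and Adam1a had mean signals below the background level of 4.98. Adamts20 (5.01), Adamts18 (5.07) and Adam22 (5.16) lay just above it. The 21 ADAMs known mainly from the reproductive tract gave differences between -0.31 and 0.32 in all comparisons.

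Some members moved with the luminal marker level across the 9 arrays, as many other genes did. By size alone, r was above 0.8 or below -0.8 for 15.9% of members, near the 13.7% of all genes. Each p is from an exact permutation over all 362880 orders and was adjusted over all genes. Timp2 was lower where luminal signal was higher (r = -0.95, rho = -0.98, p = 5.51e-06 and 4.96e-05, adjusted p = 0.00744), and r was -0.92 on the 7 arrays without those of high luminal signal. Adamts4, an aggrecanase induced by cytokines, was higher (r = 0.97, rho = 0.97, p = 0.000317 and 0.000165, adjusted p = 0.0136), and r was 0.81 without them. Adamts4 read 8.15, 7.94 and 7.50 in ASC-Ns, 7.52, 9.28 and 8.14 in ASC-Ls and 7.66, 8.54 and 7.45 in ASC-Is, with its 2 highest values on the arrays of high luminal signal. At an adjusted p under 0.05 there were 1 positive member of 82 (1.22%) and 7 negative ones (8.54%), against 6.24% positive and 5.1% negative among all genes, so the share of negative members was somewhat above and that of positive members below the background. Besides Timp2 the negative members were Mmp23, Adam15, Mmp19, Adam9, Adamts5 and Adam23 (r = -0.94 to -0.88), named in part after their values were seen. Without the arrays of high luminal signal r stayed below -0.8 for Adam15 (-0.84), and it was -0.63 for Adamts5, -0.62 for Mmp23, -0.59 for Mmp19, -0.35 for Adam23 and -0.30 for Adam9. Mmp9 had r = 0.83 over 9 arrays (rho = 0.50, p = 0.0112 and 0.178, adjusted p = 0.0726) and 0.13 over 7, so its relation rested on those 2 arrays.

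**Figure D5:**
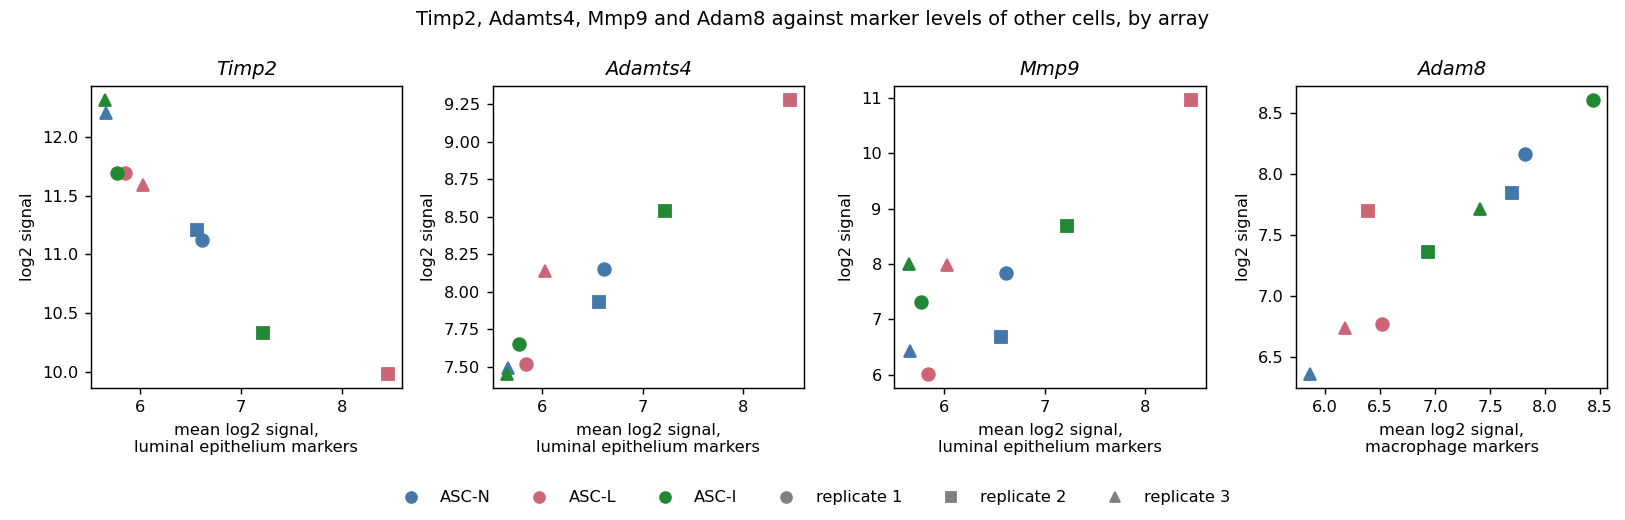
Log2 signal of Timp2, Adamts4 and Mmp9 against the mean log2 signal of the luminal epithelium markers, and of Adam8 against that of the macrophage markers, 1 point per array with the color for the stage and the shape for the replicate number. Timp2 falls and Adamts4 climbs along the whole range, Mmp9 depends on the 2 rightmost arrays, and Adam8 climbs with the macrophage markers.

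With macrophage markers, Adam8 had the highest correlation of any member (r = 0.91, rho = 0.95, exact permutation p = 0.000769 and 0.000353, adjusted p = 0.178) and r = 0.81 without ASC-N replicate 3 and ASC-I replicate 1. With adipose progenitor and fibroblast markers it was Mmp2 (r = 0.92, rho = 0.93, exact permutation p = 0.000510 and 0.000750, adjusted p = 0.222), with r = 0.91 without ASC-L replicates 2 and 3. No member passed an adjusted p of 0.05 with either list, where 0.111% of all genes did so positively with macrophage markers and 0% with the fibroblast markers. At an unadjusted p under 0.05 there were 6 members with the macrophage and 15 with the fibroblast markers, all positive, where 2.63% of all genes were positive and 2.06% negative with the macrophage markers, and 7.2% and 7.47% with the fibroblast markers. By size alone, r above 0.8 occurred for 1.05% and r below -0.8 for 0.342% of all genes with macrophage markers, against 7.5% and 6.2% with luminal markers and 1.72% and 1.36% with fibroblast markers.

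Of 46 further genes of the pathway, 44 were measured, covering the plasminogen system, activators and other inhibitors, other matrix proteases, and substrates. By limma 0 of them passed in any comparison. An unadjusted p under 0.05 by limma occurred for 2 of the 44 in ASC-Ls against ASC-Ns, where 726 of 19930 genes had one. It occurred for 0 of them in the other 2 comparisons. The 2 genes were Col4a1, a basement membrane collagen (0.40 ± 0.17), and Htra3, a secreted serine protease (-0.37 ± 0.14). Plau, the urokinase that starts the plasminogen cascade, averaged 10.78 ± 0.24 in ASC-Ls against 10.38 ± 0.32 in ASC-Ns (SD, n = 3 each), and Vcan, a substrate of Adamts1, averaged 10.46 ± 0.59 in ASC-Ls against 10.99 ± 0.38 in ASC-Ns. Neither difference passed, with intervals from -0.04 to 0.85 for Plau and from -1.33 to 0.27 for Vcan. With the replicate number as a block, the cathepsin Ctss (1.33 ± 0.55), which is also a macrophage marker, and the heparanase Hpse (0.59 ± 0.20) passed in ASC-Is against ASC-Ls.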

How the data were processed

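The deposited values are log2 signals per probe set of Affymetrix Mouse Gene 1.0 ST arrays, normalized between arrays by the authors. The study's methods name RMA for this step, whereas GCRMA, with limma, stands in the submitters' processing notes, and no version is given. RMA is known to compress the differences of dim genes, and how far this holds for the deposited values was not tested. No further normalization was applied, except where named as an alternative. Of 28348 probe sets, 21762 named 1 gene, 1621 several and 4965 none, and only the first were used. Values were averaged per gene, so that 107 probe sets gave the 82 members. Adamts3 (16), Adamts9 (6), Adamts17 (5) and Adamtsl1 (2) had several. Gene coordinates, promoters and names came from RefSeq for GRCm38.p6, which matched 82 of 82 members by Entrez identifier.

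The 3 stage means of every gene were estimated together from the 9 arrays by limma 3.58.1 (R 4.3.3), with p-values adjusted by Benjamini-Hochberg over 19930 genes. A gene passed at an unadjusted p under 0.05 and at least 1.5-fold. Intervals are 95%. Correlations used every order of the 9 arrays in Python 3.11.15 with numpy 2.4.6. The scripts were tested on simulated data. The labels call the arrays biological replicates and the animals behind each are not given in the sources used here, so the p-values rest on the spread of these preparations, which may be technical. The number of arrays limits the precision, and a permutation of 3 against 3 arrays cannot go below p = 0.10.

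Replicate numbers are shared between stages. Deviations from the stage means correlated between ASC-I and ASC-L for every number (r = 0.47, 0.73 and 0.46). They did so less evenly between ASC-L and ASC-N (r = -0.08, 0.40 and 0.45) and between ASC-I and ASC-N (r = 0.07, 0.43 and 0.50). The main results rest on the fit without the replicate number as a block. The block was an alternative fitted to all stages together, so it also entered the comparisons with ASC-N. The count of members past the limits in ASC-I against ASC-L depended on this choice. Deviations within a stage cancel out, replicate 2 was the array of high luminal signal in both ASC-L and ASC-I, and arrays of different numbers were not compared. These r therefore cannot show a pairing by number. Whether a shared number marks arrays prepared together was not tested.

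The members, lists and tests were chosen with earlier results of these data known. Named members are Mmp9, Adam12, Adamts1 and Adamtsl1, the TIMPs, Mmp2, Mmp3, Mmp13 and Mmp14, those past the limits, the 5 largest rises and falls of each comparison, and those with the 4 highest and 2 lowest correlations with each of 3 marker lists. Alternatives were another prior, only the stages compared, array weights, other normalizations, filters on low values or variation, 1 probe set per gene, the replicate block, and arrays left out.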

Additional observations from a re-analysis of the deposited data

How the results depend on the processing

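Shares in parentheses are those of all genes past the limits in the same fit. The number of members past the limits was 1 in ASC-Ls against ASC-Ns, 0 in ASC-Is against ASC-Ls and 1 in ASC-Is against ASC-Ns. In ASC-Ls against ASC-Ns it was 2 after quantile normalization (0.582%), 0 without both arrays of high luminal signal (0.773%) and between 0 and 9 when 1 array was left out. It was 9 when ASC-L replicate 1 was omitted (2.03%), 0 when ASC-N replicate 1 (0.401%) or ASC-L replicate 2 (0.617%) was, and 2, Adam22 and Mmp2, when ASC-L replicate 3 was (1.15%). The 1 member without ASC-N replicate 3 (1.77%), or after cyclic loess, was Adam22 and not Adamts1. In ASC-Is against ASC-Ls it was 2 with array weights (0.712%), 1 with the brightest probe set of each gene (0.497%), 4 without both arrays of high luminal signal (0.973%) and between 0 and 6 when 1 array was left out. It was 6 without ASC-L replicate 1 (1.66%), 4 without ASC-I replicate 2 (1.59%), 1 without ASC-L replicate 3 (Mmp8, 0.467%) and 1 without ASC-I replicate 3 (Adam22, 0.306%). In ASC-Is against ASC-Ns it was 2 with only the stages compared (0.356%) and between 0 and 2 when 1 array was left out. It was 0 without ASC-N replicate 2 (0.231%), and Mmp8 joined Adam12 without ASC-L replicate 3 (0.266%), as Adamts14 did without ASC-I replicate 3 (0.462%). With the replicate number as a block, 6 members passed in ASC-Ls against ASC-Ns (1.48%), Mmp10 as higher and Adam23, Adamts1, Adamts5, Adamtsl1 and Mmp23 as lower, and of the other pathway genes the collagen Col3a1 (-0.59 ± 0.22) did. The block gave 2 members in ASC-Is against ASC-Ls and 1, again Adam12, in ASC-Is against ASC-Ns. Members with r above 0.8 or below -0.8 numbered 1 (1.22%) for macrophage markers, 2 (2.44%) for adipose progenitor and fibroblast markers and 13 (15.9%) for luminal markers, near the 1.4%, 3.08% and 13.7% of all genes. Without the 2 arrays farthest from the median they were 6, 8 and 10, and centered on the stage mean 2, 5 and 17. The shares of all genes were not computed for these settings, so these counts cannot be set against a background. For the 33 named members, 34 single values in the alternatives passed where the reported ones did not, 7 no longer passed and 0 changed direction after passing. The cause of these shifts was not tested. With 3 arrays per stage, even a mean difference of 1.93 (Mmp10) did not pass.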
